A study of Mus musculus with 8 samples.

Results

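Plagl1 and 41 other imprinted genes were followed in the cerebellum of newborn mice that lack Sufu in granule cell precursors. The 42 genes were taken by name as a list of imprinted genes around Plagl1, out of 24062 gene rows, and all 42 were found in the files. The list was selected on measured values, the levels in mutant against control cerebellum, so the differences between genotypes are given as a description. Where calls of a test on that contrast are counted among the listed genes, they stand beside the share over all genes and support nothing. After the filter on low counts 41 genes remained among 15789; Phlda2, with 0 to 4 counts per library, did not pass.

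Each library came from the cerebellum of 1 pup at postnatal day 2, on a mixed C57BL/6 background. Parents carrying Math1-Cre and 1 Sufu null allele were crossed with parents homozygous for floxed Sufu and for the Math1 mgfp allele. By that cross every pup of either group carried a floxed Sufu allele and a Math1 mgfp allele. The 4 mutants were Math1-Cre; Sufu flox/-, and the other 4 pups are labelled control with no further genotype, so whether they carried Cre or the null allele is not given. Math1, also called Atoh1, is active in the granule cell lineage, so deletion of the floxed allele is limited to part of the tissue. The inherited null allele is in every cell of a mutant pup. Sufu restrains Hedgehog signalling, and its level was 47.7 to 60.7 CPM (read counts scaled by the TMM-adjusted library size) in controls and 31.7 to 39.8 CPM in mutants, with no overlap. The sample titles also hold a letter, P or R, whose meaning is not given. Controls 1 and 2 and mutants 1 and 2 carry P, and controls 3 and 4 and mutants 3 and 4 carry R.

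An imprinted gene is expressed mainly from the copy inherited from 1 parent, according to methylation laid down in the germ line. Plagl1, also called Zac1, is expressed from the paternal copy and encodes a zinc finger transcription factor that restrains cell division and binds regulatory sequences of other imprinted genes. Many imprinted genes are high in embryonic and newborn tissue, brain included, and decline after birth. The counts do not separate the parental alleles, and in bulk tissue fewer cells of a type cannot be told apart from less RNA per cell.

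The 250 bases before the start of Plagl1 and before a start of Mest are shown because these were the listed genes whose mutant libraries all lay above the controls. Both are RefSeq sequences in GRCm38.p6, written 5′ to 3′ on the plus strand, at chr10:13090582-13090831 for Plagl1 and chr6:30737800-30738049 for Mest. Capitals mark TGCCGC or its reverse complement GCGGCA, the letters bound by Zfp57, a zinc finger protein that keeps methylation at imprinted regions.
Plagl1: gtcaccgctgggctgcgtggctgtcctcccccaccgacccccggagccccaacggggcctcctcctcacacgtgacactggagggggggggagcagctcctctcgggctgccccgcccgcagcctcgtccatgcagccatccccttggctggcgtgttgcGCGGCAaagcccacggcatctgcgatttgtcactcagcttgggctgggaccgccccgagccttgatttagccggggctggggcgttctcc
Mest: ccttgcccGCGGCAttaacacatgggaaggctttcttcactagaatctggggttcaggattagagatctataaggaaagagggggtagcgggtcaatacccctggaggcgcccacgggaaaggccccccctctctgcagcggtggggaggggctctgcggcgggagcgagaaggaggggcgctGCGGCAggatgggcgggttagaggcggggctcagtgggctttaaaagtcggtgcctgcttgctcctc
The stretch before Plagl1 holds 1 such match and that before Mest holds 2. Promoter windows of 300 bases, 250 before and 50 after each start, matched 36 of the 42 genes by symbol. TGCCGC on either strand was in 13 of their 56 windows (23.2%) and in 11.6% of all 32851 windows. GGGGCCCC, the core of the site bound by Plagl1 and the same on both strands, was in 4 of the 56 windows (7.14%), those of Begain, Peg3, Usp29 and Ppp1r9a, and in 1.08% of all windows. The windows of Peg3 and Usp29 overlap, so these 2 are not separate matches. Neither Plagl1 nor Mest holds GGGGCCCC in its windows. A match of letters describes the sequence and is not a binding site.

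Of the 41 genes tested, 9 had a higher mean in mutants and 32 a lower mean. The median log2 fold change, mutant over control, was -0.21, beside 0.01 over all genes tested. All 4 mutant libraries lay above all 4 controls for 2 genes, Plagl1 and Mest, where the share over all genes was 3.6%. They lay below all controls for 2 genes, H19 and Ndn, where the share over all genes was 2.96%. No gene of the 15789 passed edgeR's quasi-likelihood test after adjustment (0% of all genes, and 0 of the 41). At an unadjusted p under 0.05 the list held 2 genes on the higher side, where all genes gave 6.94%, and 7 on the lower side, where all genes gave 5.7%. DESeq2 called 1 listed gene higher, Plagl1 (0.248% of all genes), and 0 lower (0.0745% of all genes). Since the list was chosen from this contrast, nothing is read from these counts. The median rested in part on mutant 4 and was -0.08 without it.

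**Figure D1:**
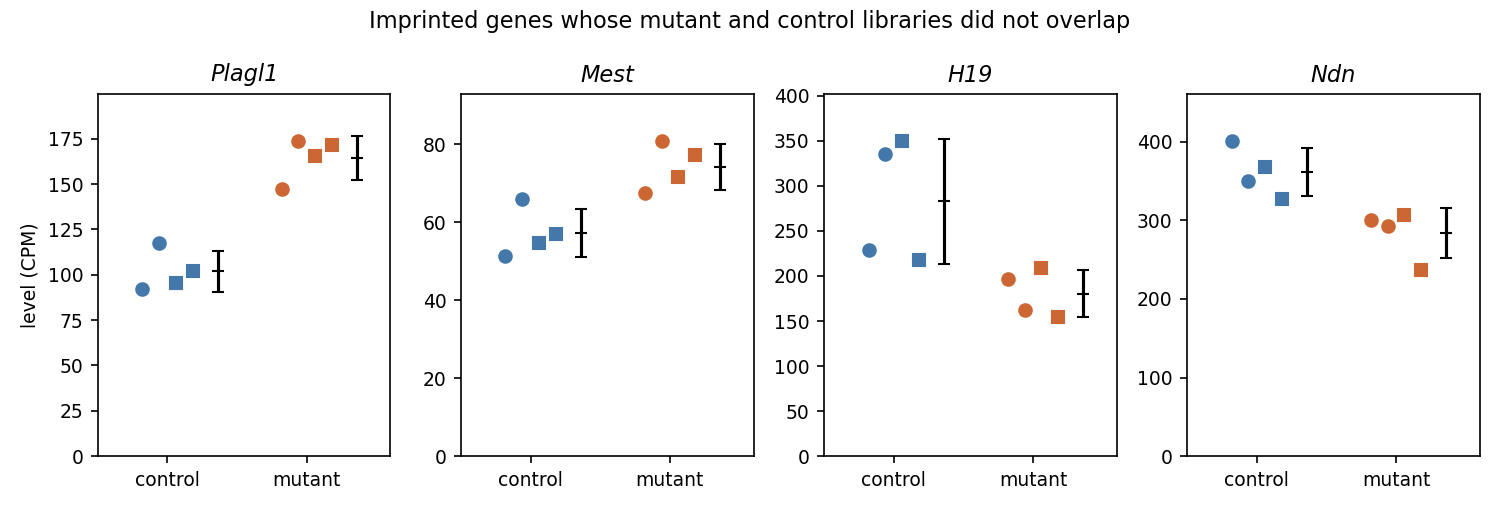
Level in CPM of Plagl1, Mest, H19 and Ndn in each of 4 control (blue) and 4 mutant (orange) cerebella; circles are title letter P, squares are letter R, and the black mark with bars is the mean ± SD. The mutants lie at 147 to 174 CPM for Plagl1, above all controls, and at 154 to 208 CPM for H19, below all controls.

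Plagl1 stood at 92.4, 117, 95.6 and 102 CPM in controls 1 to 4 and at 147, 174, 165 and 171 CPM in mutants 1 to 4. Every mutant was above every control, and control 2 was the highest of the controls as mutant 2 was of the mutants. The mean was 102 ± 11.1 CPM in controls and 164 ± 12.1 CPM in mutants (SD, n = 4 each), which gave a log2 fold change of 0.69 (SE 0.10). The ratio of means was 0.61 on the log2 scale within letter P and 0.77 within letter R. Over the alternatives run on both letters the value ran from 0.61 to 0.75. All 6 exon bins of Plagl1 had a higher mean in mutants, by 0.41 to 0.81. The last bin held 87.6 ± 0.641% of the gene's bin counts in controls and 88.3 ± 1.78% in mutants (SD, n = 4 each), so most reads of the gene came from it.

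The related PLAG family genes lie outside the list. Plagl2, a zinc finger factor of the same family, was 25.1 ± 2.06 CPM in controls and 30.7 ± 4.14 CPM in mutants (SD, n = 4 each), which gave a log2 fold change of 0.29 (SE 0.12). Plag1 had 0.30 (SE 0.19). Neither passed edgeR's test over all genes, with adjusted p of 0.387 and 0.494. The 4 Plagl2 mutant values lay above all controls, while those of Plag1 overlapped.

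Marker levels of other cell types moved with the genotype beside Plagl1. The summed level of 12 choroid plexus markers was 1586 to 3643 CPM in controls and 3949 to 6630 CPM in mutants, with all 12 higher in the mean and none at 0. Control 2 and mutant 2 were highest in their groups for this sum, as they were for Plagl1. The summed level of 10 endothelial and pericyte markers, all higher in the mean, was 302 to 379 CPM in controls and 331 to 481 CPM in mutants. The sum of 11 granule cell precursor markers was 1291 to 1552 CPM in controls and 1314 to 2576 CPM in mutants. Of these 11, 10 were higher in the mean and 1 was lower, at a log2 fold change of -0.46. No marker of either list was at 0. Purkinje cell markers, 10 in number and each higher in the mean, summed to 657 to 938 CPM in controls and 749 to 1120 CPM in mutants. Oligodendrocyte lineage markers went the other way, as most of the listed genes did. Their sum over 10 genes was 1255 to 1886 CPM in controls and 647 to 1254 CPM in mutants, with 9 of 10 lower in the mean and mutant 4 lowest. The groups did not overlap but nearly touched, at 1254.6 CPM in control 4 and 1254.3 CPM in mutant 1. No Purkinje or oligodendrocyte marker was at 0 in a library. The part of these lists in the values of Plagl1 and the other imprinted genes was not tested.

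Mest, expressed from the paternal copy and encoding a protein of the hydrolase fold, was 51.3, 65.9, 54.7 and 57.0 CPM in controls and 67.5, 80.7, 71.5 and 77.2 CPM in mutants. The lowest mutant lay just above the highest control. The log2 fold change was 0.37 (SE 0.10), and all 12 bins of Mest kept had a higher mean in mutants, by 0.26 to 0.50. Copg2, a coatomer subunit that overlaps the end of Mest, had 0.03 (SE 0.09), with its groups overlapping.

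H19, a long noncoding RNA from the maternal copy, went the other way. Controls held 229, 335, 350 and 218 CPM and mutants 197, 162, 208 and 154 CPM. Controls 2 and 3 were the highest libraries, while the lowest control was only slightly above the highest mutant. The mean was 283 ± 69.2 CPM in controls and 180 ± 26.3 CPM in mutants (SD, n = 4 each), which gave a log2 fold change of -0.65 (SE 0.17). It was -0.65 within letter P and -0.65 within letter R. The 3 bins of H19 lay between -0.66 and -0.65. The same controls 2 and 3 were highest for 12 meningeal and fibroblast markers, at 1695 and 1412 CPM, against 1057 and 1032 CPM in controls 1 and 4. The mutants held 1085 to 1569 CPM of these markers, with none at 0. By gene, 9 of the 12 had a lower mean in mutants and 3 a higher mean, with a median log2 fold change of -0.19. The part of these markers in the H19 values was not tested. Igf2, the growth factor gene next to H19 expressed from the other parental copy, was 781 ± 239 CPM in controls and 742 ± 46.1 CPM in mutants (SD, n = 4 each) and did not pass edgeR's test (adjusted p = 0.881).

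H19 is the host of miR-675, Meg3 of miR-770, and Mirg of miR-412, miR-369 and miR-410, which share exon bin groups with these hosts in the files. Small RNAs were not measured in these polyA libraries, whose counts on the 5 microRNA rows reached at most 2 in a library. The mature sequences are printed because their hosts are listed RNAs with lower means in mutants. They are from RefSeq (GRCm38.p6), and capitals mark the seed, bases 2 to 8.
miR-675-3p: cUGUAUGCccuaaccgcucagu
miR-675-5p: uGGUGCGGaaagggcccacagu
miR-770-5p: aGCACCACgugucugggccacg
miR-770-3p: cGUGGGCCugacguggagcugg
miR-412-5p: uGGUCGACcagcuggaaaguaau
miR-412-3p: uUCACCUGguccacuagccg
miR-369-5p: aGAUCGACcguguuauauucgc
miR-369-3p: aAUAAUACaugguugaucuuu
miR-410-5p: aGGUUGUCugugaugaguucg
miR-410-3p: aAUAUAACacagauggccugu
The 10 mature sequences hold 10 distinct seeds, so no 2 of them fall into a shared seed group.

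All 6 genes of the Dlk1-Dio3 domain had a lower mean in mutants, but in different libraries. Dlk1, a membrane protein related to Notch ligands and expressed from the paternal copy, was 34.2, 22.6, 27.6 and 27.4 CPM in controls and 18.9, 20.1, 23.2 and 15.9 CPM in mutants. Mutant 3 lay above control 2, the one place where the groups crossed, and all 12 bins of Dlk1 had a lower mean, by log2 ratios from -1.01 to -0.25. The log2 fold change was -0.52 (SE 0.15), with -0.54 within letter P and -0.49 within letter R.

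The maternal noncoding RNAs of the domain followed another order. Meg3 was 3175, 2678, 2791 and 2879 CPM in controls and 3101, 3526, 1772 and 1132 CPM in mutants. Mutants 1 and 2 lay within or above the controls, and mutants 3 and 4 lay below all of them. The log2 fold change of Meg3 was -0.27 (SE 0.29), with a ratio of means of 0.18 within letter P and -0.97 within letter R, and leaving out mutant 4 moved it to -0.05. Taking Hox genes of the adjacent hindbrain as a covariate gave 0.07. Rian, host of small nucleolar RNAs, had -0.54 (SE 0.27), and Mirg, host of microRNAs, had -0.53 (SE 0.23). Rian and Mirg were also lowest in mutant 4, at 330 and 5.87 CPM, and without it their values were -0.33 and -0.34. All 17 Meg3 bins, 20 of 21 Rian bins and all 8 Mirg bins kept had a lower mean in mutants. Dio3, the deiodinase that inactivates thyroid hormone, was under 1.1 CPM in every library and had -0.40 (SE 0.33), or -0.20 without mutant 4. Begain, a synaptic protein gene at the edge of the domain, had -0.62 (SE 0.23), and its 27.0 CPM in mutant 4 stood against 53.3 to 85.5 CPM in controls.

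Peg3, a paternally expressed zinc finger gene, was 282, 253, 255 and 251 CPM in controls and 298, 302, 198 and 171 CPM in mutants. The controls lay in between, with mutants 1 and 2 above all of them and mutants 3 and 4 below. The log2 fold change over both letters was -0.10 (SE 0.18). Usp29, a deubiquitinase gene that starts beside Peg3 in the opposite direction, had -0.25 (SE 0.29), and Zim1, a maternally expressed zinc finger gene nearby, had -0.18 (SE 0.29). Without mutant 4 the value of Peg3 was 0.03 and that of Zim1 0.01, so the sign of both turned, and that of Usp29 was -0.07. Both genes, and Usp29, were lower in mutants 3 and 4 than in mutants 1 and 2.

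Ndn, a MAGE family gene of the Snrpn locus that is paternally expressed and acts as a growth suppressor in neurons, was 401, 350, 368 and 327 CPM in controls and 300, 292, 306 and 236 CPM in mutants. All mutants lay below all controls, with mutant 4 lowest. The log2 fold change was -0.35 (SE 0.11), and it was -0.34 within letter P and -0.36 within letter R. Mkrn3, a ubiquitin ligase gene of the same locus, had -0.50 (SE 0.16), and Magel2, a second MAGE gene, had -0.46 (SE 0.28) with 8.25 CPM in mutant 4 against 22.2 to 28.5 CPM in controls. Leaving out mutant 4 gave -0.22 for Magel2, and within letter P it was -0.06. Peg12, related to the Frat regulators of Wnt signalling, had a higher mean, at 0.36 (SE 0.21), and its 11.7 and 15.3 CPM in mutants 3 and 4 were the highest values. The Peg12 value was 0.13 without mutant 4, and within letter P it was -0.12. Ube3a, the ubiquitin ligase expressed from the maternal copy in neurons, had -0.06 (SE 0.21), and controls 3 and 4 were at 71.1 and 81.4 CPM against 125 and 146 CPM in controls 1 and 2.

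The gene row of Snrpn, a splicing protein, holds few of its reads. Snrpn had 10.9 ± 1.38 CPM in controls and 8.42 ± 2.03 CPM in mutants by gene row (SD, n = 4 each), which gave a log2 fold change of -0.37 (SE 0.19). Its exon bins, joined with Snurf in the files, summed to 1484 ± 152 CPM in controls and 1128 ± 260 CPM in mutants (SD, n = 4 each), a log2 ratio of -0.40. Without mutant 4 the gene row gave -0.22 and the bins -0.25. All 15 bins had a lower mean in mutants, by -0.55 to -0.20. In exon bin counting a read that spans several bins counts in each of them, so the sums are not read totals, and the Snurf row held under 1.2 CPM in each library.

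Peg10, a retrotransposon-derived paternally expressed gene, was 103, 102, 98.4 and 95.9 CPM in controls and 121, 101, 62.5 and 45.8 CPM in mutants. The controls lay close together, mutant 1 lay above them, mutant 2 within them, and mutants 3 and 4 below. Its log2 fold change over both letters was -0.27 (SE 0.25). Sgce, which encodes epsilon-sarcoglycan and shares the Peg10 control region, had 0.03 (SE 0.09). Ppp1r9a, a neurabin gene, had 0.04 (SE 0.12), and Asb4, a maternally expressed ubiquitin ligase adaptor, had -0.38 (SE 0.39) with 2.01 CPM in mutant 4 against 8.27 to 10.8 CPM in controls. Without mutant 4 the value was -0.06 for Asb4 and -0.08 for Peg10.

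Among the loci of 1 or 2 listed genes, Nap1l5, a nucleosome assembly protein gene, had the lowest fold change of the list. Nap1l5 was 396, 330, 380 and 311 CPM in controls and 316, 264, 210 and 69.9 CPM in mutants, and the log2 fold change was -0.72 (SE 0.34). Mutant 1 lay just inside the controls, the other mutants lay below them, and mutant 4 stood far below the rest. Without mutant 4 the Nap1l5 value was -0.43. Impact, an inhibitor of the Gcn2 stress kinase, was 111, 104, 84.5 and 84.5 CPM in controls and 102, 79.8, 71.1 and 49.2 CPM in mutants, and the log2 fold change was -0.35 (SE 0.19). Mutants 2 to 4 were below all controls and mutant 1 was not. Zdbf2, a zinc finger gene with a role in growth, was 98.9, 106, 74.6 and 68.5 CPM in controls and 115, 84.3, 50.9 and 38.7 CPM in mutants, and the log2 fold change was -0.27 (SE 0.29), and only its letter R mutants lay below all controls. Without mutant 4 the value was -0.19 for Impact and -0.06 for Zdbf2.

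Nnat, a small membrane proteolipid of neurons, was 1628, 1403, 1744 and 1547 CPM in controls and 1172, 1451, 1455 and 1041 CPM in mutants, and the log2 fold change was -0.30 (SE 0.14). Mutants 2 and 3 lay within the range of the controls. Blcap, the gene that holds Nnat in an intron, had -0.21 (SE 0.13), or -0.10 without mutant 4. Gnas, which encodes the stimulatory G protein subunit, was 1594, 1476, 1968 and 1783 CPM in controls and 1393, 1551, 1605 and 1336 CPM in mutants, and the log2 fold change was -0.21 (SE 0.13). Its groups overlapped in mutants 2 and 3.

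Grb10, an adaptor that limits growth factor receptor signals, was 141, 169, 163 and 155 CPM in controls and 169, 167, 173 and 180 CPM in mutants, and the log2 fold change was 0.14 (SE 0.09). Mutants 3 and 4 lay above all controls, mutant 1 only just so, at 169.3 CPM against 168.5 CPM in control 2, and mutant 2 lay within them. Slc38a4, an amino acid transporter, was 5.81, 8.31, 7.17 and 5.96 CPM in controls and 6.65, 8.25, 7.07 and 8.77 CPM in mutants, and the log2 fold change was 0.17 (SE 0.16), with the groups mixed. The Slc38a4 value was 0.10 without mutant 4. In the Kcnq1ot1 domain, Phlda2, a growth-limiting gene of the placenta, was below 0.2 CPM in every library, at 0.155, 0.117, 0.0914 and 0 CPM in controls and 0.0437, 0.043, 0.177 and 0.149 CPM in mutants, too low to rank. Cd81, a tetraspanin, had a log2 fold change of -0.21 (SE 0.10), Tssc4 -0.01 (SE 0.12) and Slc22a18, a transporter, 0.10 (SE 0.26). Slc22a18 was low, at 0.542 to 1.01 CPM over the libraries, with ratios of means of 0.38 within letter P and -0.21 within letter R.

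Another 3 loci pair a gene with a second gene that lies inside it, and reads of such pairs can be shared because the use of strand in the counting is not given. Peg13, a noncoding RNA, was 247, 224, 291 and 275 CPM in controls and 268, 279, 224 and 242 CPM in mutants, and the log2 fold change was -0.03 (SE 0.11), and its host Trappc9, a trafficking gene, had -0.04 (SE 0.10). Mcts2, a retrogene copy of Mcts1, was 15.7, 14.1, 12.1 and 11.1 CPM in controls and 12.4, 10.7, 13.9 and 12.7 CPM in mutants, and its host H13, a signal peptide peptidase, had -0.03 (SE 0.10). The groups overlapped for all of these, with Mcts2 at -0.09 (SE 0.14). Zrsr1, a splicing factor retrogene, was 47.7, 39.3, 46.1 and 44.3 CPM in controls and 43.2, 38.3, 36.2 and 23.7 CPM in mutants, and the log2 fold change was -0.33 (SE 0.16), and mutant 4 stood below the rest. Without it the Zrsr1 value was -0.18. Retrogenes such as Mcts2 and Zrsr1 resemble their parent genes, so their counts are uncertain.

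**Figure D2:**
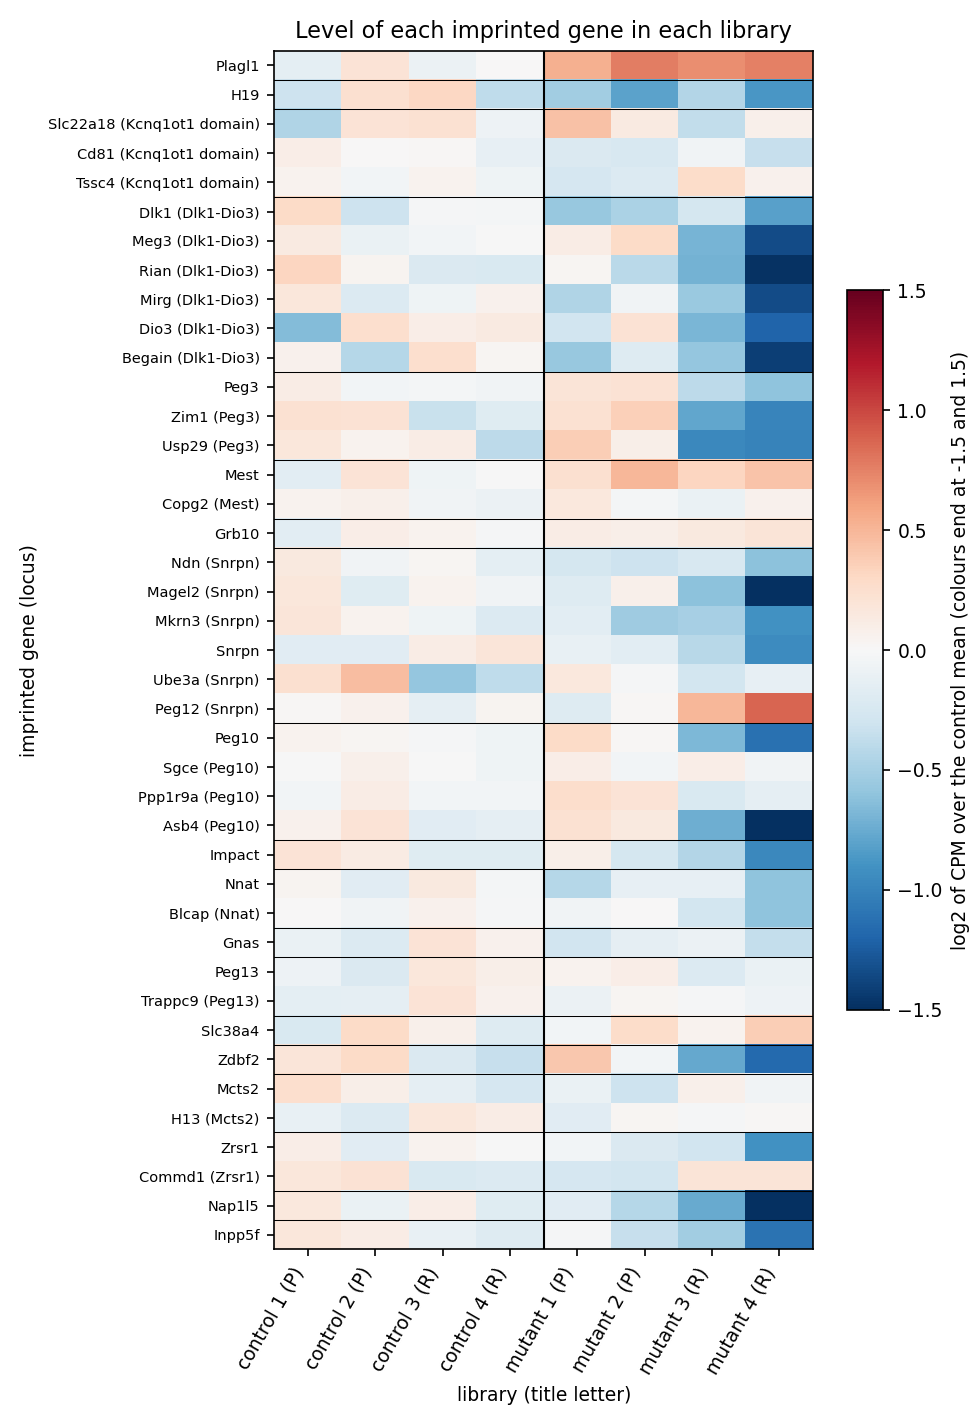
Level of the 41 imprinted genes tested (rows, by locus) in each of the 8 libraries (columns, with title letter), as log2 of CPM over the control mean, blue below and red above. Mutant 4 is the bluest column, with a median of -0.61, and Plagl1 is red in all 4 mutants.

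Seen by library, the median of the 41 genes relative to the control mean was close to 0 in both P mutants, at -0.04 and -0.03 on the log2 scale. It was -0.27 in mutant 3 and -0.61 in mutant 4. Mutant 4 was the lowest of the 8 libraries for 25 of the 41 genes (61%), while over all genes tested it was lowest for 23.2% and highest for 25%. The list was chosen on mutant against control levels, so the rank of a mutant library among its genes is not independent of that choice. Beside these values, mutant 4 held 6.47 CPM summed over 11 Hox genes of the adjacent hindbrain, where the controls held 118 to 205 CPM and mutants 1 to 3 63.5 to 170 CPM. It also held 12.3 CPM over 10 brainstem and midbrain neuron markers, where the controls held 79.7 to 111 CPM. Mutant 3 held 97.2 CPM of the Hox genes and 41.0 CPM of the brainstem and midbrain markers. No gene of either list was at 0 in a library. By gene, all 11 Hox genes had a lower mean in mutants. Of the brainstem and midbrain markers, 9 had a lower mean in mutants and 1 a higher mean. With the mean level of the Hox genes as a covariate, the median log2 fold change of the 41 genes was -0.05 and 23 had a lower value, while Plagl1 stood at 0.62, Mest at 0.31, H19 at -0.52 and Ndn at -0.24. Mutants 2 and 4 were the only libraries with Y-linked counts of note, at 74.5 and 65.3 CPM of Ddx3y. They held 1.76 and 0.818 CPM of Xist, where the other libraries held 1449 to 2197 CPM. No control was of this kind, so sex was not balanced between the groups. Without mutants 2 and 4, Plagl1 was 0.61, Mest 0.28, H19 -0.48 and Ndn -0.26.

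The title letter was not used to choose the genes, and each letter holds 2 pups of each genotype, so it was tested. The test is not independent of the choice on genotype, since a gene low only in the R mutants also differs between genotypes. Meg3 was 2927 and 2835 CPM in P and R controls, and 3314 and 1452 CPM in P and R mutants. The letter counts are therefore given as a description. By edgeR's quasi-likelihood test with adjustment over all genes, 0 of the 41 passed in either direction, where all genes gave 0.0127% higher in R and 0.00633% lower in R. At an unadjusted p under 0.05, 13 were lower in R, where all genes gave 12.7%, and 0 were higher, where all genes gave 13.3%. DESeq2 called 11 lower in R (5.68% of all genes) and 0 higher (5.89% of all genes). The mean was lower in R for 31 of the 41 genes, with a median log2 difference of -0.12, beside 0.00 over all genes. Markers of other cells moved with the letter too. All 10 brainstem and midbrain neuron markers had a lower mean in R, with a median of -0.80, and all 11 granule cell precursor markers a higher mean, with a median of 0.50. The brainstem and midbrain sum was 82.8 to 111 CPM in P libraries and 12.3 to 108 CPM in R libraries, and the granule cell precursor sum was 1291 to 1679 and 1510 to 2576 CPM. The summary lines took 30.1 to 34.3% of the entries in P libraries and 24.8 to 26.3% in R libraries, without overlap. The part of these in the letter values was not tested. The largest of the differences by edgeR were Asb4 at -0.87, Zdbf2 at -0.83 and Zim1 at -0.82, named here after their values were seen. In controls the means in P and R were 10.3 and 8.36 CPM for Asb4, 102 and 71.6 CPM for Zdbf2 and 20.6 and 14.8 CPM for Zim1. In mutants they were 10.6 and 3.81 CPM, 99.7 and 44.8 CPM, and 21.7 and 9.59 CPM. What the letter stands for, and with it any batch, cannot be told apart from other differences between the pups.

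Within letter P, with 2 mutants against 2 controls, the libraries did not overlap for 7 genes on the higher side (23.1% of all genes) and 13 on the lower side (23.2% of all genes). Within letter R there were 8 on the higher side (35.4% of all genes) and 28 on the lower side (29.2% of all genes). These counts come from the contrast that chose the list and are given as a description.

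**Figure D3:**
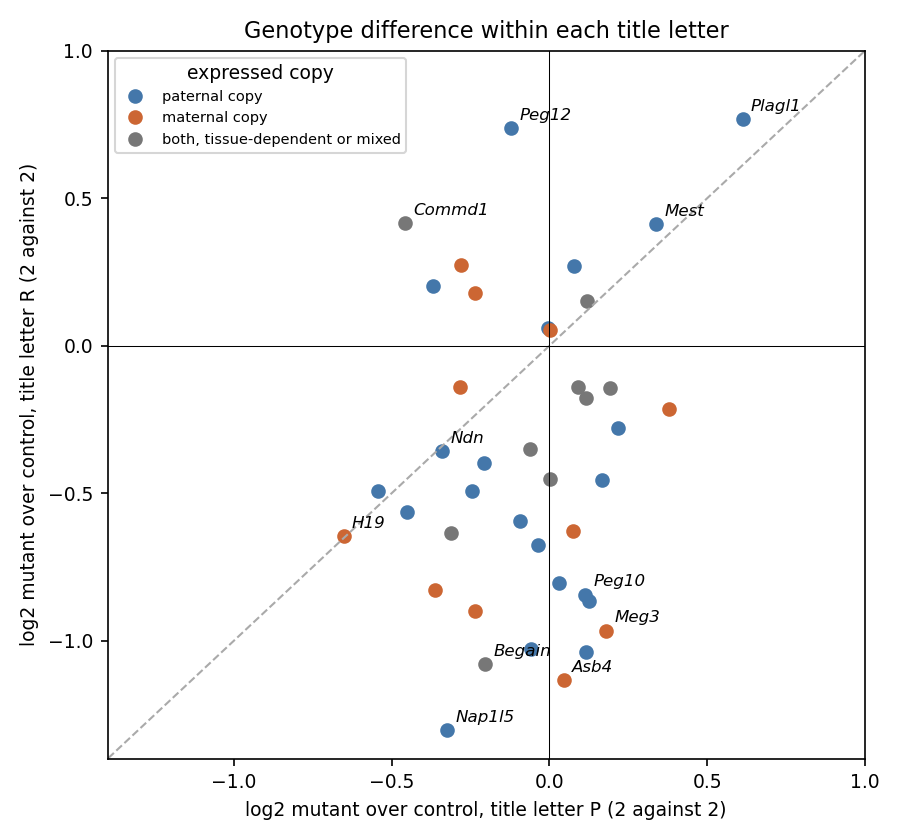
Log2 of the mutant over the control mean for the 41 imprinted genes within letter P (x axis) and letter R (y axis), 2 libraries against 2. Colours give the expressed parental copy, assigned from textbook knowledge, and equal values lie on the dashed line. Plagl1, Mest, H19 and Ndn lie near the line, Peg10 lies at 0.11 and -0.84, and Commd1 at -0.46 and 0.42.

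Whether the genotype difference itself differed between the letters was tested as an interaction. The choice of the list on genotype can reach this test too, so its counts are a description. The interaction passed edgeR's test after adjustment for 2 of the 41 genes, Peg10 and Commd1, where all genes gave 3.2%. DESeq2 called 6 (8.81% of all genes), Meg3, Peg3, Usp29, Peg10, Peg13 and Commd1, and 18 had an unadjusted p under 0.05 by edgeR (22.5% of all genes). For Peg10 the log2 difference, R less P, was -0.96 (SE 0.21, adjusted p = 0.0449 by edgeR). Commd1, which encodes a protein of copper handling and endosomal sorting and is the host of Zrsr1, was 39.1, 40.6, 29.7 and 30.3 CPM in controls and 29.2, 28.9, 40.0 and 40.0 CPM in mutants. The high pairs were the P controls and the R mutants, and within each letter the genotypes did not overlap. The Commd1 difference, R less P, was 0.87 (SE 0.13, adjusted p = 0.0174 by edgeR), while its fold change over both letters was -0.02 (SE 0.15). Both calls were lost, to 0 of the 41 genes, when control 1, 2, 3 or 4 or mutant 1 or 2 was left out. In those fits 0.0063 to 0.245% of all genes passed. Without mutant 3 there were 19 calls among the 41, where 13.5% of all genes passed, and without mutant 4 there were 3, where 2.52% passed.

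For Plagl1 the interaction was 0.16 (SE 0.18), for Mest 0.07 (SE 0.19), for H19 0.01 (SE 0.39) and for Ndn -0.02 (SE 0.19), and none of these passed edgeR's test. Their adjusted p ran from 0.655 for Plagl1 to 0.995 for H19.

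**Figure D4:**
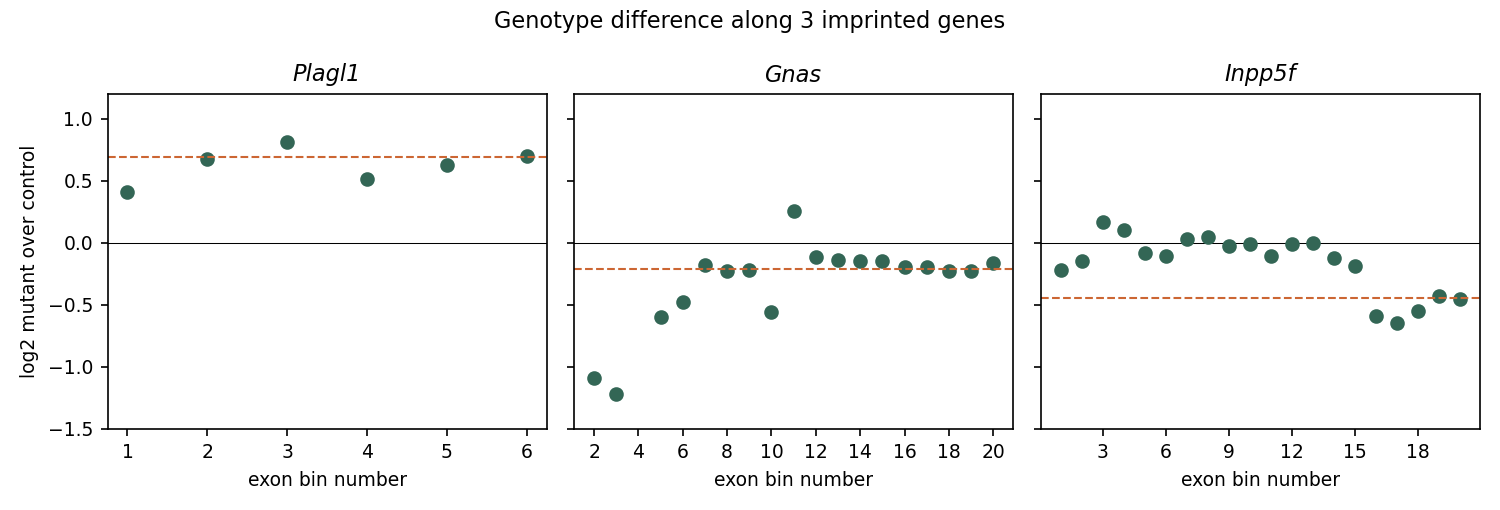
Log2 of the mutant over the control mean for each exon bin kept of Plagl1, Gnas and Inpp5f, in the order of bin number, with the gene's own log2 fold change as a dashed line. Bins of Plagl1 lie above 0, bins 2 and 3 of Gnas lie at -1.09 and -1.22, and bins 16 to 20 of Inpp5f lie at -0.65 to -0.43.

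Exon bins show how even a difference was along a gene. The files hold 402 bins of the listed genes, of which 357 had a mean of at least 10 counts. Of the 29 genes with at least 3 such bins, 13 had every bin on 1 side. With each library left out in turn, this number ran from 11 to 18. The share over all genes was not computed, and bins of a gene share its libraries, so nothing is read from the number.

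Inpp5f, a phosphoinositide phosphatase gene, holds a shorter paternally expressed transcript that starts inside it and shares its last exons. By gene row it was 564, 543, 463 and 440 CPM in controls and 497, 395, 349 and 233 CPM in mutants, and the log2 fold change was -0.45 (SE 0.20). Mutant 1 lay within the controls and the other mutants below them. The gene's value was -0.29 without mutant 4. Bins 1 to 15 summed to 44.7 ± 3.80 CPM in controls and 43.6 ± 4.47 CPM in mutants, and bins 16 to 20 to 613 ± 75.9 and 440 ± 132 CPM (SD, n = 4 each). Bins 16 to 20 were thus at a log2 ratio of -0.48, and -0.31 without mutant 4, while bins 1 to 15 were at -0.04; the split was made after the values were seen. Bins 16 to 20 held 92.6 to 93.6% of the bin counts in controls and 86.0 to 92.4% in mutants, with no overlap.

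Gnas has several first exons, the most upstream of which belongs to the maternally expressed transcript Nesp. Bins 2 and 3, at the upstream end of this plus-strand gene, summed to 60.2, 40.5, 58.3 and 43.3 CPM in controls and 26.9, 33.6, 23.4 and 7.36 CPM in mutants. All mutants lay below all controls, and mutant 4 was lowest. The mutant mean was 45.1% of the control mean, a log2 ratio of -1.15, and -0.85 without mutant 4. Bins 7 to 20, with 98.1 to 99.7% of the counts in each library, were at -0.19. The bins carry no transcript names, so their transcript is not given, and they were picked after the values were seen. The antisense row Nespas, not on the list, was 0.310, 0.468, 0.320 and 0.329 CPM in controls and 0.569, 0.902, 0.928 and 0.706 CPM in mutants. All mutants lay above all controls at this low level, and the log2 fold change was 1.10 (SE 0.28), and the gene did not pass edgeR's test (adjusted p = 0.381).

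By expressed copy, 16 of 21 paternally expressed genes had a lower mean in mutants with a median log2 fold change of -0.27, as did 9 of 11 maternally expressed genes tested with a median of -0.21. Of 9 genes with both copies, tissue-dependent or mixed expression, 7 had a lower mean, with a median of -0.04. These groups hold the same libraries and are a description. The expressed copy of each gene was assigned from textbook knowledge, and whether it holds in this tissue was not tested. This includes Cd81 and Tssc4 in the maternal group, where Cd81, at -0.21, sets the median.

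Imprinted genes outside the list were taken through the same fit, as were genes that maintain imprints. Both lists were drawn up with results of this contrast known, so their counts are not independent evidence. Of 46 listed, 44 were in the files and 38 passed the filter, with 17 means higher in mutants and 21 lower, and a median log2 fold change of -0.05. None passed edgeR's test after adjustment (0 by DESeq2 too), and 4 higher and 2 lower had an unadjusted p under 0.05, where all genes gave 6.94% and 5.7%. Nespas, above, and Phactr2, which lies in the Plagl1 region and encodes a phosphatase and actin regulator, had the smallest p. Phactr2 was 42.2 ± 8.11 CPM in controls and 57.8 ± 8.28 CPM in mutants (SD, n = 4 each), which gave a log2 fold change of 0.45 (SE 0.15, adjusted p = 0.381 by edgeR), with overlapping groups.

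Of 19 genes that maintain imprints, among them methyltransferases and their partners, 16 passed the filter. The mean was higher in mutants for 15 and lower for 1, Dnmt3a, with a median log2 fold change of 0.18. Over all 15789 genes tested, 8254 means were higher and 7535 lower, with a median of 0.01. None passed edgeR's test (0 by DESeq2 too), and 3 had an unadjusted p under 0.05, all on the higher side, where all genes gave 6.94%. Ctcf, the insulator protein that binds the H19 control region, had 0.31 (SE 0.10, adjusted p = 0.381 by edgeR), and Smchd1, a chromatin protein of imprinted loci, had 0.27 (SE 0.11, adjusted p = 0.392 by edgeR). Zfp57 had 0.07 (SE 0.10) and did not pass.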

How the data were processed

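RNA from individual P2 cerebella was sequenced after polyA selection, per the labels' protocols, in 4 control and 4 mutant libraries. The deposited files held read counts per gene and per exon bin, made by the authors; the submitters' processing notes name TopHat, HTSeq, DESeq2 and the build mm9. For strand and annotation, nothing is given in the sources. The 42 imprinted genes and all gene lists were chosen with earlier results of these data known.

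Counts of 24062 gene rows were analysed; the 5 summary lines, 24.8 to 34.3% of all entries per library, were left out. Totals ran from 21479565 to 26638284. Genes were filtered with filterByExpr and scaled with TMM in edgeR 4.0.16 (R 4.3.3), giving CPM (scaled counts) and, for 15789 genes, quasi-likelihood tests with Benjamini-Hochberg adjustment and a threshold of 0.05. Separate fits took genotype, the title letter and their interaction. Exon bins with a mean of at least 10 counts were described with no test. Libraries were individual animals numbered by accession within a group, and no 2 of a group agreed within sampling noise in a chi-square comparison.

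Every listed gene is named; per-library values are given for Plagl1, genes whose groups did not overlap, genes passing the letter or interaction test, and the first gene listed of each locus. Of the other imprinted and imprint maintenance genes, the 2 with the smallest p per list are named. Alternatives were DESeq2 1.42.0, other size factors, no filter, the letter as a block, each letter alone, each library left out and, chosen after seeing the data, a Hox covariate and omission of 2 mutants. On simulated data, the interaction test recovered 12% of genes changed 2-fold and 88% of those changed 4-fold, over 15693 genes. The simulated spread came from the fit on genotype alone, which counts letter differences as spread. These rates therefore hold for that setting and not for the interaction fit of the real data. Intervals from 4 libraries a group cover the spread between these animals only.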

Additional observations from a re-analysis of the deposited data

Results flagged for a closer look

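Peg3 in control 1 stood at 282 CPM, apart from 251 to 255 CPM in the other controls, and Ppp1r9a in control 2 stood at 173 CPM, apart from 154 to 155 CPM. Both gaps exceeded the 95% limit of Dixon's test for 4 values. Of 82 groups examined, 2 were marked this way, and chance marks about 1 in 20 groups. The genotype difference of Peg10 was lower in letter R than in letter P by a log2 difference of -0.96, and that of Commd1 was higher in R by 0.87. Both differences passed the interaction test by edgeR after adjustment over all genes. Both calls were lost without any single control, without mutant 1 or without mutant 2.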

How the results depend on the processing

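Plagl1, Mest, H19 and Ndn were among 23 of the 41 tested genes that kept their direction in each of the alternatives run over both letters; the other 18 changed sign in at least 1. DESeq2 called 1 listed gene between genotypes (0.31% of all genes) and edgeR 0, in the contrast that chose the list. Genes with no overlap numbered 7 above and 13 below within letter P (23.1 and 23.2% of all genes), 8 above and 28 below within letter R (35.4 and 29.2%), and 4 above and 5 below with both Y-linked mutants (2 and 4) left out (5.64 and 5.18%). Leaving out each library gave 2 to 3 above (3.67 to 7.49% of all genes) and 2 to 9 below (3.33 to 8.34%). For the title letter, 2 genes passed with no filter on low counts (0.935% of all genes) and 11 with DESeq2 (11.6%). For the interaction, 6 passed with DESeq2 (8.81%), and 0 to 19 with each library left out (0.0063 to 13.5%). The median log2 fold change moved to -0.08 without mutant 4, -0.37 without mutant 2, -0.04 within letter P and -0.45 within letter R. With the Hox genes as covariate, chosen after seeing the data, it was -0.05. The cause of these shifts was not tested. Depth limits the precision for genes such as Dio3, at under 1.1 CPM.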
